A study of Homo sapiens with 11 samples.

Results

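The nuclear-encoded respiratory chain genes make the subunits, assembly factors and close paralogs of the 5 enzyme complexes of mitochondrial oxidative phosphorylation. They were taken from the deposited table by name alone: every gene whose name starts with NDUFA, NDUFB, NDUFC, NDUFS, NDUFV, SDH, UQCR, COX4, COX5, COX6, COX7, COX8 or ATP5, holds no hyphen and does not end in P and a number. This gave 98 of the 38021 genes in the table, of which 45 belong to complex I, 8 to complex II, 9 to complex III, 19 to complex IV and 17 to complex V. A further 5 names matched a prefix and were dropped because they hold a hyphen (read-through and antisense genes), and 0 ended in P and a number. NDUFA4 and its paralog NDUFA4L2 were placed with complex IV, where NDUFA4 is known to sit, and ATP5SL was placed with complex I as an assembly factor. Genes of the same complexes under other names, such as CYC1, are outside this set and were counted in separate lists.

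RNA was sequenced from HEK293T cells, a transformed line of embryonic kidney origin with its genotype given as WT, after 6 h of treatment. The vehicle group received 0.1% DMSO, and 1 group received thapsigargin (Tg, 500 nM), an inhibitor of the pump that fills the endoplasmic reticulum (ER) with calcium, used to stress the ER. The other groups received AA147 at 10 µM or AA132 at 0.1, 0.3, 1, 3, 6, 10, 15 or 30 µM, which are small molecules that adjust protein folding capacity in the ER. There are 11 conditions, each with 1 sample in the labels and 3 numbered columns in the table. These columns are treated here as 3 libraries of a condition. No label says that they are separate cultures, so p-values measure only the spread between these libraries, which may be technical.

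Oxidative phosphorylation passes electrons from NADH (complex I) and succinate (complex II) through coenzyme Q to complex III, then through cytochrome c to complex IV, which reduces oxygen. Complexes I, III and IV pump protons across the inner mitochondrial membrane, and complex V, the ATP synthase, lets them back to make ATP. Complex II is the only one with all of its subunits encoded in the nucleus, while the others combine nuclear and mitochondrial gene products, so their transcripts come from separate genomes.

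The libraries held 32.27 to 37.96 M counts, the next lowest total being 36.36 M. The fit's common dispersion gives a biological coefficient of variation of 9.09%. Of 6 markers of HEK293T cells, 5 reached 1 CPM (counts scaled to library size) in every library, and PAX2 did not. Of 11 markers of other cell types, 10 stayed under 1 CPM in every library, among them PTPRC, HBB, ALB and PECAM1, and the list summed to 20.7 to 50.7 CPM, nearly all of it from COL1A1. All 7 genes listed as ER stress markers (HSPA5, DNAJB9, DDIT3, ATF4, TRIB3, ASNS and HMOX1) rose under both Tg and AA132 30 µM. The ER chaperone HSPA5 had a log2 fold change of 3.52 ± 0.17 (standard error, SE) under Tg and 1.46 ± 0.16 under AA132 30 µM. Set directly against Tg, 1 of the 7 was higher and 6 were lower in AA132 30 µM.

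Vehicle library 1 stood apart in these genes. Measured as the median, over the 92 respiratory chain genes tested, of the deviation from the mean of each gene over all 33 libraries, vehicle library 1 lay 0.31 above on the log2 scale. The other 32 libraries lay between −0.10 and 0.13. All 5 complexes took part, with medians of 0.29 to 0.32 in vehicle library 1. The highest medians elsewhere were 0.127 in complex I, 0.105 in II, 0.214 in III, 0.272 in IV and 0.209 in V. Those of III and IV were in library 1 of AA132 10 µM, and that of V was in library 1 of AA147. The gap was thus small in complex IV. The genes took 1.67% of all counts in vehicle library 1, against 1.28% to 1.53% elsewhere. Other classes of transcript moved in the same library. The 1238 other genes with a canonical transcript under 1000 bases lay 0.24 above, against −0.052 to 0.12 in the other libraries. Ribosomal protein genes (73) lay 0.28 above, and the 3991 other genes with transcripts over 5000 bases lay at −0.285. Their part in the results below was not tested. Counts and medians of members in each comparison with vehicle are therefore given also without vehicle library 1, and, for Tg and for AA132 at 3 µM and above, against the 9 libraries of AA132 at 0.1, 0.3 and 1 µM, doses at which 0 of 17793 genes were called against vehicle. That reference was chosen after the data were seen.

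**Figure D1:**
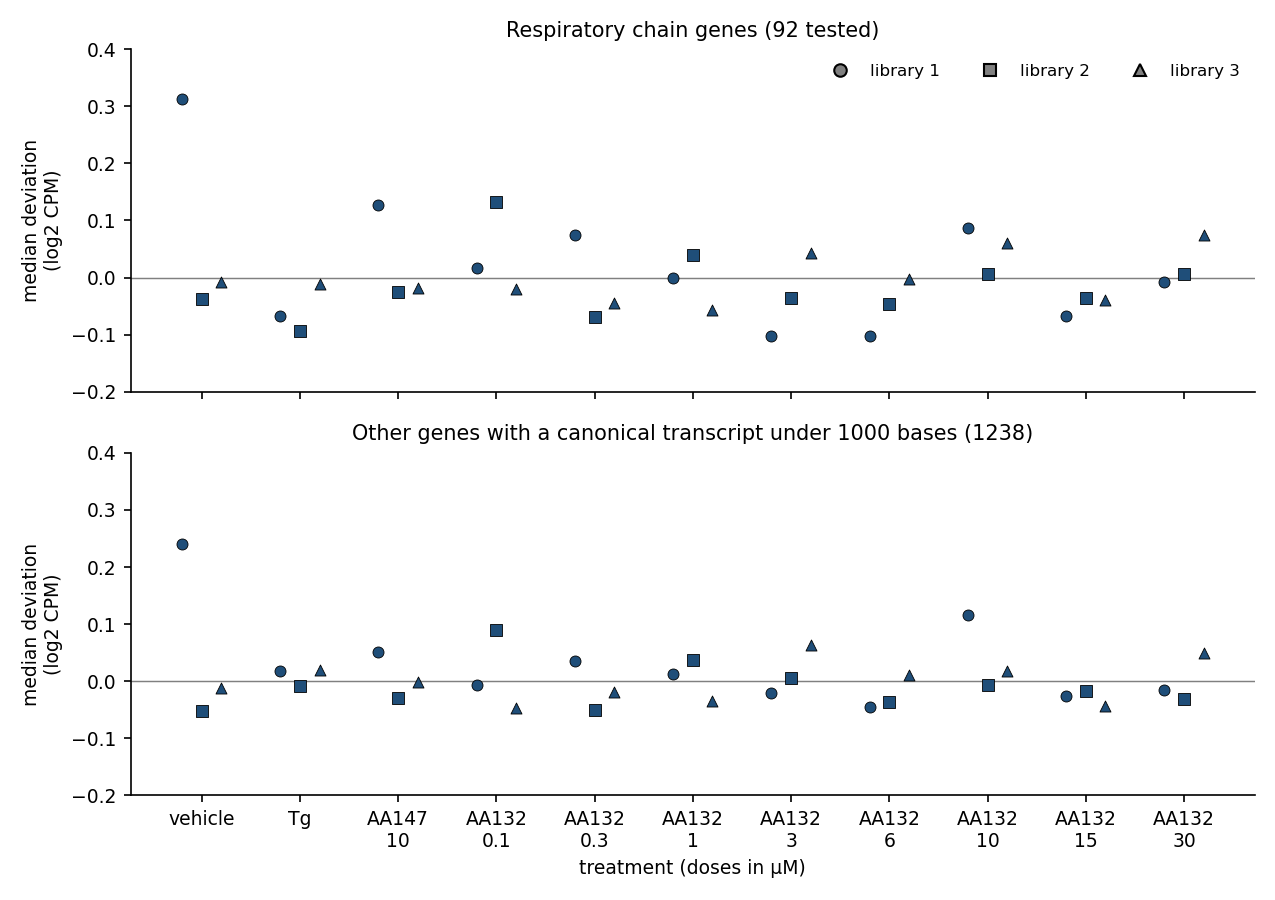
Median deviation of log2 CPM from the mean of each gene over the 33 libraries, by treatment (doses in µM), for the 92 respiratory chain genes tested (upper panel) and for 1238 other genes with canonical transcripts under 1000 bases (lower panel). Each symbol is 1 library, and vehicle library 1 lies highest in both panels, at 0.31 and 0.24.

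Expression in vehicle differed widely between members. Levels are given as CPM per kilobase of the canonical transcript in GENCODE v44, and they depend on which transcript length is used, since some canonical transcripts carry a long 3′ end. COX6B1, a subunit on the intermembrane face of complex IV, was the highest of all members at 1076 ± 166 CPM per kilobase (SD, n = 3). ATP5B, the catalytic beta subunit of the ATP synthase, was highest in complex V at 879 ± 70.9, NDUFB8 highest in complex I at 352.7 ± 39.7, and SDHB, the iron-sulfur subunit, highest in complex II at 156.7 ± 16.9. UQCRHL was highest in complex III at 343 ± 32.4, but it is a near-identical copy of UQCRH (185 ± 16.9), and how the authors' counting divided reads between the 2 genes is not known. Among tested members the lowest were assembly factors and paralogs: NDUFAF5 in complex I at 3.80 ± 0.39, SDHAF4 in complex II at 2.58 ± 0.80 and the paralog ATP5L2 in complex V at 1.08 ± 0.26. UQCRB was lowest in complex III at 16.0 ± 2.4, over a canonical transcript of 8459 bases. The median member lay at 237 CPM per kilobase in complex IV (13 tested members), 221 in V, 137 in III, 103 in I and 56.1 in II.

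The paralogs known from other tissues or conditions were near or at zero. COX6A2 and COX7B2, known from muscle and testis, had 0 counts in all 33 libraries, and COX4I2, known from lung and hypoxia, had 2 counts in 1 library. COX8C and COX6B2, known from testis, had 15 and 53 counts over all libraries, and COX7A1, the heart and muscle form, had 104. These 6 members failed the filter on low counts and were not tested, which left 92 of 98. NDUFA4L2, a hypoxia-inducible paralog, passed the filter at 0.36, 0.109 and 0.133 CPM in vehicle, and a gene this low had 0 counts in 2 libraries. Their ubiquitous counterparts were plentiful. In vehicle, COX4I1 measured 421, 310.3 and 338 CPM, COX6A1 206, 149 and 183 CPM, and COX8A 251, 199 and 194 CPM.

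The comparison of Tg with vehicle asks how these genes respond to ER stress. Genes of all 5 complexes fell, led by NDUFB3 of complex I and ATP5G1 of complex V, and 3 genes of complex I rose, led by NDUFV3, which rose with every reference and scaling tried. Of the 92 tested, 31 were called lower (33.7%), where 15.0% of all 17793 genes tested were, and 3 were called higher (3.26%), where 16.2% of all genes were. Called means an adjusted p under 0.05 in edgeR's quasi-likelihood test with Benjamini-Hochberg adjustment over all genes tested. The median log2 fold change of the 92 was −0.13, and that of all genes 0.005. By complex the medians were −0.12 in I, −0.10 in II, −0.33 in III, −0.11 in IV and −0.16 in V. Without vehicle library 1 they were 0 (to 3 decimals), −0.071, −0.21, 0.013 and −0.089, and against the low-dose AA132 libraries −0.054, 0.035, −0.14, −0.042 and −0.12. Complexes III and V thus stayed at −0.089 or lower with all 3 references, where the median of complex III counts UQCRH and its near-identical copy UQCRHL apart. The median of complex I came to 0 without vehicle library 1, and those of complexes II and IV changed sign with the reference. In bulk RNA, fewer cells of a kind and less RNA per cell cannot be told apart.

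The counts changed with the reference. Without vehicle library 1, 18 members were lower (19.6%, all genes 14.3%) and 7 higher (7.61%, all genes 14.1%), with a median of −0.038 against −0.006 for all genes. Against the low-dose AA132 libraries, 26 were lower (28.3%, all genes 19.0%) and 8 higher (8.7%, all genes 20.0%), with a median of −0.065. The 3 rises and 18 of the 31 falls were called with all 3 references. The 3 fits share their Tg libraries, and the share of all genes called with all 3 was not counted. The 18 falls comprised 7 genes of complex I, 1 of complex II, 4 of complex III, 3 of complex IV and 3 of complex V. The 4 of complex III include UQCRH and its near-identical copy UQCRHL. Other members were called higher only with another reference, and they are named after their values were seen. NDUFS4, an accessory subunit of complex I, measured 0.205 (adjusted p = 0.195) against all 3 vehicle libraries, and it was called higher without vehicle library 1 (0.33, adjusted p = 0.0324) and against the low-dose libraries (0.36, adjusted p = 0.0019). The core subunits NDUFS7, NDUFS8 and NDUFV1 were called higher without vehicle library 1, and NDUFS1, NDUFAF6, COX7A2L and NDUFA4L2 against the low-dose libraries, where NDUFB7 was called lower. When only the 6 vehicle and Tg libraries were fitted, 17 members were lower and 1 higher.

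**Figure D2:**
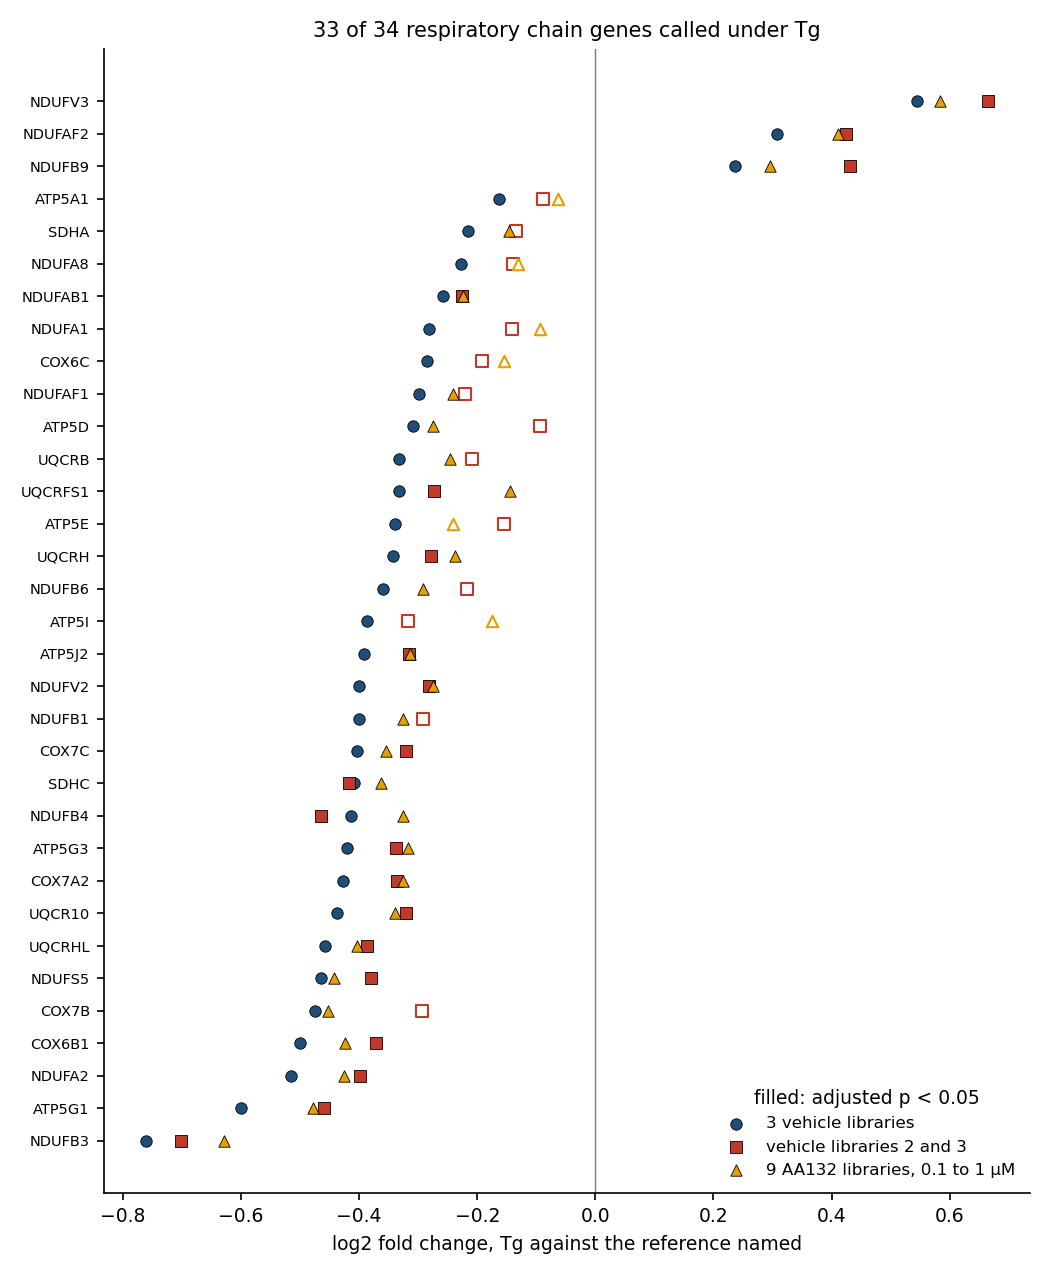
Log2 fold change under Tg (horizontal axis) of 33 of the 34 respiratory chain genes called against the 3 vehicle libraries (circles), with the same genes against vehicle libraries 2 and 3 (squares) and against 9 libraries of AA132 at 0.1 to 1 µM (triangles); filled symbols have an adjusted p under 0.05. NDUFV3, NDUFAF2 and NDUFB9 lie above 0 with each reference, and NDUFB3 and ATP5G1 lie lowest.

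Complex I, which oxidizes NADH, held the strongest fall and all 3 rises. NDUFB3, an accessory subunit of the membrane arm, measured 55.1, 48.1 and 48.8 CPM in vehicle and 29.3, 31.6 and 28.8 CPM under Tg. All 3 Tg libraries lay below every other library of the study. Its log2 fold change was −0.76 ± 0.14 (SE; adjusted p = 4.20e-05), and it was −0.70 without vehicle library 1 and −0.63 against the low-dose libraries. NDUFA2, an accessory subunit of the matrix arm, went from 124, 94.6 and 100.5 CPM to 82.5, 70.7 and 69.8 CPM. Its groups did not overlap, and it changed by −0.52 ± 0.087 (adjusted p = 1.93e-05).

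NDUFV3 moved the other way. This accessory subunit of the NADH-oxidizing tip measured 81.4, 64.2 and 63.6 CPM in vehicle and 107.7, 93.6 and 104 CPM under Tg. Its 3 Tg libraries were the highest of all 33. The log2 fold change was 0.545 ± 0.085 (adjusted p = 5.60e-06), and 0.66 without vehicle library 1. NDUFAF2, an assembly factor for the same part of the enzyme, measured 20.9, 17.4 and 15.7 CPM in vehicle and 23.7, 19.6 and 23.5 CPM under Tg, with overlap between the groups through vehicle library 1. Its log2 fold change was 0.31 ± 0.12 (adjusted p = 0.0413) and 0.42 without that library. NDUFB9, an accessory subunit of the membrane arm, went from 148.1, 98.5 and 105.5 CPM to 131.97, 141 and 141 CPM, again overlapping through vehicle library 1. The change was 0.24 ± 0.092 (adjusted p = 0.0493), and it rose to 0.43 (adjusted p = 1.52e-05) without vehicle library 1. Neither of these calls held when vehicle library 2 or 3 or Tg library 1 or 3 was left out, with adjusted p of 0.123 to 0.209 for NDUFAF2 and 0.0734 to 0.411 for NDUFB9, and NDUFB9 was also lost without Tg library 2 (adjusted p = 0.130). Upper quartile factors, library totals and the fit of vehicle and Tg alone ended both calls, with adjusted p of 0.071 to 0.163 for NDUFAF2 and 0.0791 to 0.316 for NDUFB9. NDUFB9 was lost as well with size factors of the RLE kind (median ratios; adjusted p = 0.0519) and with the library number as a block (adjusted p = 0.0515), and it held in 4 of 14 fits, against 7 of 14 for NDUFAF2.

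By role, 2 of the 7 core subunits of complex I were lower, 9 of 30 accessory subunits were lower and 2 higher, and 1 of 8 assembly factors was lower and 1 higher. The core subunits that fell included NDUFV2, an iron-sulfur subunit, at −0.40 ± 0.093 (adjusted p = 0.00102). It was not among the largest changes and is named here after its values were seen. The 5 core subunits that were not called lay between −0.006 (NDUFS3) and 0.11 (NDUFS1). Without vehicle library 1, 3 of these 5 were called higher: NDUFS7 at 0.26 (adjusted p = 0.00901), NDUFS8 at 0.25 (adjusted p = 0.043) and NDUFV1 at 0.21 (adjusted p = 0.00729). Against the low-dose libraries NDUFS1 was the 1 called higher (0.14, adjusted p = 0.0107). Accessory subunits had 5 lower and 3 higher without vehicle library 1, and 8 lower and 3 higher against the low-dose libraries. The assembly factor that fell was NDUFAF1, at −0.30 ± 0.085 (adjusted p = 0.00725), which was not called without vehicle library 1 (adjusted p = 0.0582).

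Complex II, succinate dehydrogenase, is shared with the tricarboxylic acid cycle. Among its 4 subunits, SDHC, a membrane anchor that helps bind coenzyme Q and heme, measured 157.7, 159.2 and 157.9 CPM in vehicle and 129, 112.5 and 116.1 CPM under Tg. It is the called member with the tightest vehicle values, and vehicle library 1 did not stand apart in it. Its log2 fold change was −0.41 ± 0.075 (adjusted p = 5.79e-05), and −0.42 without that library. The flavoprotein SDHA measured 402, 340.2 and 338 CPM in vehicle and 317, 300.9 and 313.5 CPM under Tg, a change of −0.215 ± 0.069 (adjusted p = 0.0165) that was not called without vehicle library 1 (−0.13, adjusted p = 0.141) or without Tg library 2 (−0.19, adjusted p = 0.0699). SDHA and SDHC have near-identical pseudogene copies, so part of their reads may have been assigned elsewhere. SDHB and SDHD, at −0.14 and −0.062, were not called, and neither were the 4 assembly factors, at −0.23 to 0.26. SDHC was singled out after its values were seen.

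Complex III had the lowest median and 5 of 9 members called lower, 4 of them with every reference. UQCRFS1, the Rieske iron-sulfur protein at the catalytic site, measured 288.5, 254 and 251 CPM in vehicle and 213, 206 and 211.5 CPM under Tg. The groups did not overlap, and the change was −0.33 ± 0.070 (adjusted p = 3.60e-04), although it was −0.14 (adjusted p = 0.0447) against the low-dose libraries. Among the 6 small accessory genes 4 fell: UQCRHL by 0.46, UQCR10 by 0.44, UQCRH by 0.34 and UQCRB by 0.33 on the log2 scale. UQCRH binds near cytochrome c1, and because UQCRHL is its near copy, they cannot be counted as separate observations. The large core proteins UQCRC1 and UQCRC2, at −0.029 and −0.10, were not called.

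In complex IV, cytochrome c oxidase, 5 of 11 subunits tested were lower: COX6B1, COX7B, COX7A2, COX7C and COX6C. COX6B1 measured 619, 473 and 484 CPM in vehicle and 376, 345.2 and 393 CPM under Tg. Every Tg library lay below every vehicle library, and the change was −0.50 ± 0.094 (adjusted p = 8.86e-05), or −0.37 without vehicle library 1. COX7A2, a small membrane subunit, measured 289, 220.3 and 257 CPM in vehicle and 178, 198 and 193 CPM under Tg, a change of −0.43 ± 0.12 (adjusted p = 0.00738). Without vehicle library 1 the call was lost for COX7B (−0.29, adjusted p = 0.0791) and COX6C (−0.19, adjusted p = 0.223). COX6C was also lost against the low-dose libraries (−0.155, adjusted p = 0.162), and it held in 7 of 14 fits. COX4I1, NDUFA4, COX6A1 and COX8A, at −0.072, −0.13, 0.092 and −0.11, were not called, and their Tg libraries overlapped those of vehicle. The supercomplex factor COX7A2L, which joins complexes III and IV, measured 125.1, 103.5 and 110.8 CPM in vehicle and 123.1, 118.8 and 126.9 CPM under Tg. It was not called against vehicle (0.12, adjusted p = 0.259), and it was called against the low-dose libraries (0.18, adjusted p = 0.0192).

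NDUFA4L2 gave the largest fitted change of any member, at under 1 CPM. It measured 0.57, 0.464 and 0.599 CPM under Tg, above the vehicle values, and its log2 fold change of 1.43 ± 0.715 was not called (adjusted p = 0.1317). Against the low-dose libraries, where it lay between 0 and 0.296 CPM, the change was 1.94 (adjusted p = 0.00559). A single AA132 10 µM library reached 0.574 CPM, which lies within the Tg range.

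In complex V, the ATP synthase, 7 of 17 members were lower and 0 were higher. ATP5G1, 1 of 3 genes for the c subunit of the rotor ring (now named ATP5MC1), measured 157.5, 115.5 and 122.8 CPM in vehicle and 91.3, 82.9 and 87 CPM under Tg. All 3 Tg values lay below every other library, and the change was −0.60 ± 0.084 (adjusted p = 8.53e-07), or −0.46 without vehicle library 1. ATP5G3, which encodes the same mature protein, changed by −0.42 ± 0.081 (adjusted p = 1.18e-04), while ATP5G2, the remaining c subunit gene, lay at −0.023 and was not called. The difference between these paralogs was not tested. In the catalytic head and central stalk 3 of 5 genes were lower (ATP5E, ATP5D and ATP5A1), and each of them lost its call without vehicle library 1. Of the 3 small membrane subunits ATP5J2 and ATP5I were lower. ATP5J2 was called with all 3 references, while ATP5I was not called without vehicle library 1 (−0.32, adjusted p = 0.0857), against the low-dose libraries (−0.175, adjusted p = 0.2001) or without Tg library 2 (−0.27, adjusted p = 0.162). Of the 4 peripheral stalk genes, which hold the head still, 0 were called, at −0.13 to −0.022.

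**Figure D3:**
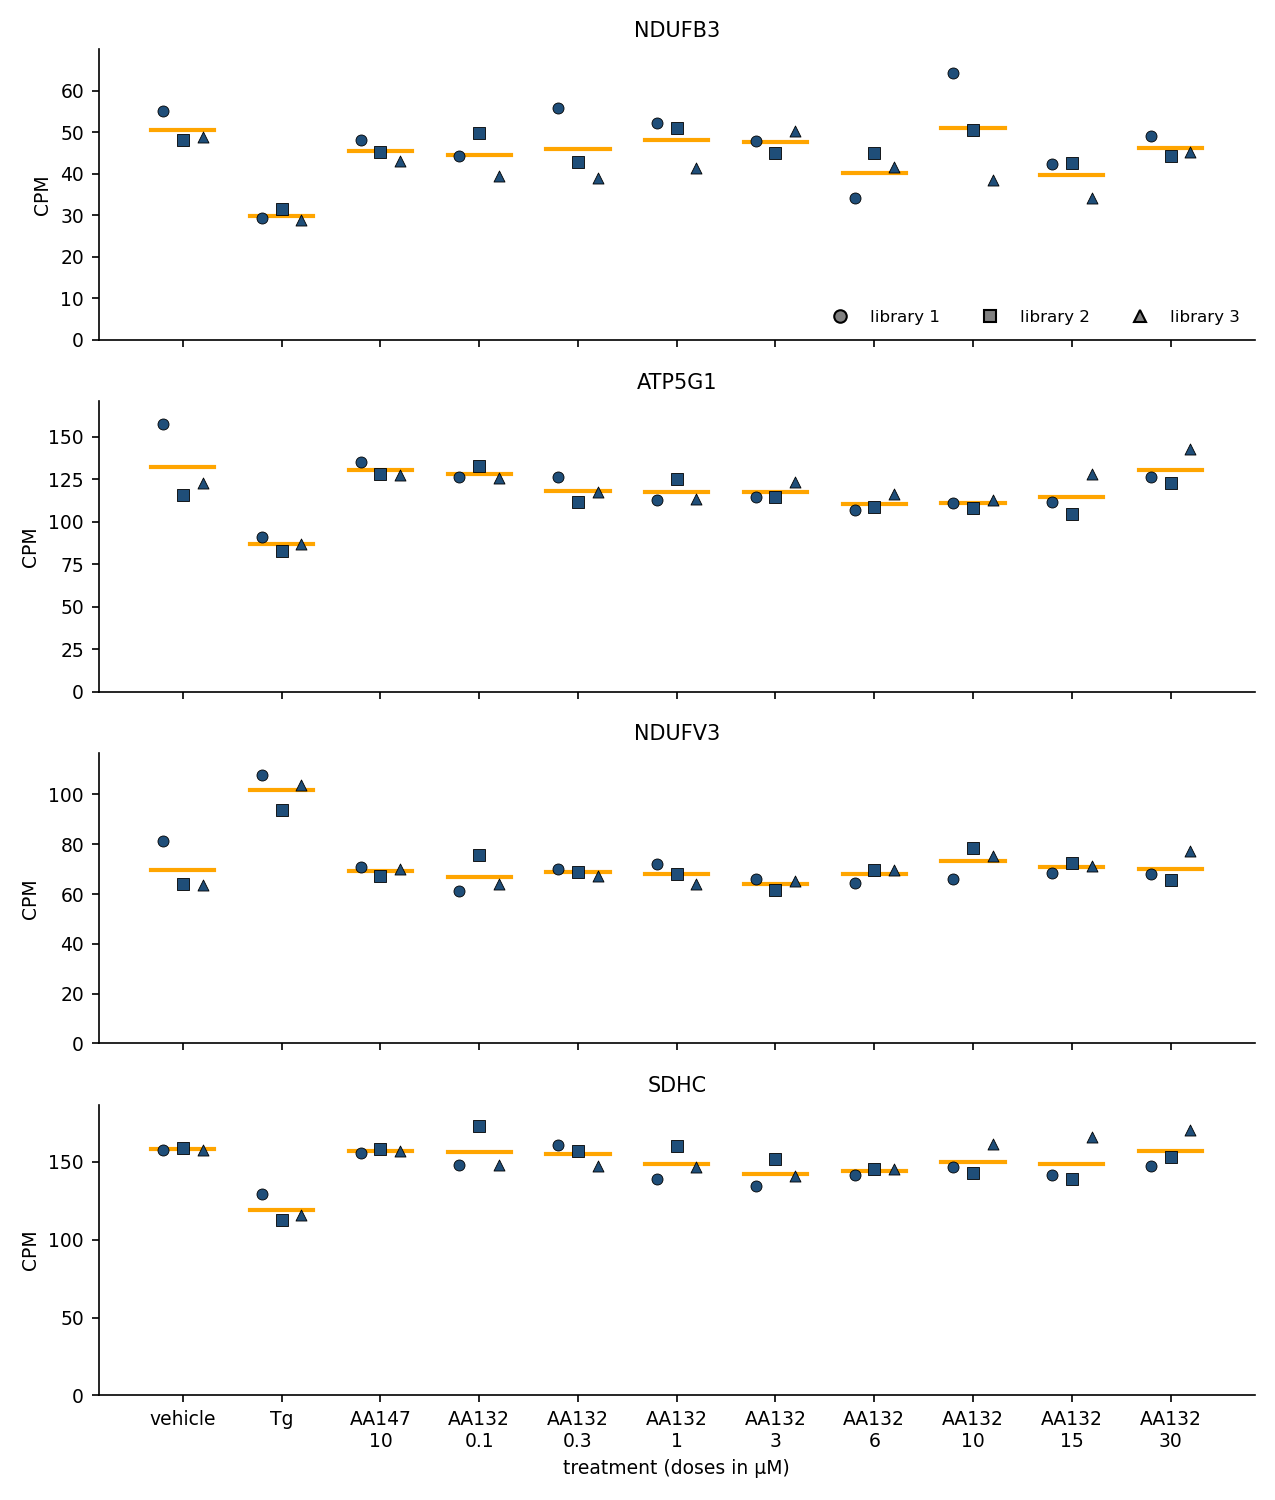
CPM of NDUFB3, ATP5G1, NDUFV3 and SDHC (vertical axes, starting at 0) in each of the 33 libraries by treatment (doses in µM), with the mean of each condition as a bar. The 3 Tg libraries lie lowest for NDUFB3, ATP5G1 and SDHC and highest for NDUFV3.

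Of the 92 tested members, 50 have a canonical transcript under 1000 bases. Vehicle library 1 lay high in short transcripts of other genes (0.24) and low in long ones (−0.285). The part of length in the calls was not tested. Under Tg, 20 of the 50 tested members with a canonical transcript under 1000 bases were called lower (40%), as were 11 of the 42 longer ones (26.2%). These counts were 14 (28%) and 4 (9.52%) without vehicle library 1, and against the low-dose libraries 17 (34%) and 9 (21.4%). Among the 1238 short transcripts of other genes, 11.8% were called lower, with a median of −0.063, and without vehicle library 1 6.14% were, with a median of 0.034. Ribosomal protein genes had 8 of 73 called lower and a median of −0.037, or 1 and 0.092 without vehicle library 1.

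The start of these genes was inspected because several members moved together. RefSeq windows on GRCh38.p14, from 250 bases before to 50 bases after the start, were found for 78 of the 98 members and for 12306 of the genes tested. The windows were searched on both strands for letters known from nuclear respiratory factor 1 (NRF1; GCGCA, any base, then GCGC), YY1 (AAGATGGCG) and ETS factors such as GABP (CCGGAAG), from the estrogen-related receptors (TCAAGGTCA) and from C/EBP-ATF factors (TGATGNAA). Matches to different motifs can overlap by a few letters and were counted separately. NRF1 letters were in 19 of 78 member windows (24.4%) and in 11.04% of the windows of all genes tested. ETS letters were in 23 (29.5%, all genes 18.0%), YY1 letters in 9 (11.5%, all genes 3.78%), and receptor and C/EBP-ATF letters in 1 window each (1.28%, all genes 0.114% and 1.41%). NRF1 letters were in 4 of 7 windows of complex II and 4 of 7 of complex III, and in 1 of 14 of complex IV. They were in 6 of the 22 windows of members called lower under Tg (27.3%) and in 12 of the 50 of members not called (24%). ETS letters were in 5 (22.7%) and 18 (36%) of these windows, and YY1 letters in 0 and 9 (18%). No difference between called and uncalled members was tested. A match describes the letters and is not evidence of binding.

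The following stretches, 170 bases on the gene's strand that end just before the RefSeq start, belong to members on which the results turn: the largest fall and the largest rise under Tg (NDUFB3, NDUFV3), the c subunit gene ATP5G1, 2 lower members with NRF1 letters (NDUFB4, UQCRFS1), and SDHA, the member with the steepest fall over AA132 dose. They were read from chr2:201071831-201072000 (plus strand), chr21:42893139-42893308 (plus), chr17:48892617-48892786 (plus), chr3:120596166-120596335 (plus), chr19:29213152-29213321 (minus) and chr5:218150-218319 (plus), each upstream of the first exon of its RefSeq transcript. Other annotated transcripts of NDUFB3 and NDUFV3 start further upstream, and some of ATP5G1, NDUFB4 and SDHA start within the last bases shown. Capitals mark NRF1 letters on either strand.
NDUFB3: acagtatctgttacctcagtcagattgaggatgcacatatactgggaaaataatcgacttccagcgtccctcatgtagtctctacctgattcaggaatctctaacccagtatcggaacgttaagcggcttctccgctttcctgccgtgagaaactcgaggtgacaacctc
NDUFV3: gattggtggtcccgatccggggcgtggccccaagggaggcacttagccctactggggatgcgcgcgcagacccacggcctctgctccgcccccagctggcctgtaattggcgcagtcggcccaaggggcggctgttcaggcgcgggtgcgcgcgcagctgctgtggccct
ATP5G1: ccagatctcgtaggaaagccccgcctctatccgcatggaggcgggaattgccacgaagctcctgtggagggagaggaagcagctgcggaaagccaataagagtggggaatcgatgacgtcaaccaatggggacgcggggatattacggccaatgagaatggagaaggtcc
NDUFB4: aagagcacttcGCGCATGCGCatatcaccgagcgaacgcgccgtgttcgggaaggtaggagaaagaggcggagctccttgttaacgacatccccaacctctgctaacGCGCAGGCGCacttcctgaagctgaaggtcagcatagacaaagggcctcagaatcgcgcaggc
UQCRFS1: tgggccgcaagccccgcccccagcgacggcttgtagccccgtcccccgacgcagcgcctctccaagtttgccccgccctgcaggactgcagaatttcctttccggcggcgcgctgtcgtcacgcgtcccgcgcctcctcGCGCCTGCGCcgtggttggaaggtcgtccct
SDHA: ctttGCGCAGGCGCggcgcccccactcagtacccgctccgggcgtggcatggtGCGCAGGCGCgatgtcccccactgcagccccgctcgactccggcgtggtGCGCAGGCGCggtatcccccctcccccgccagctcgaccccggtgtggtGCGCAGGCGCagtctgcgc
SDHA holds the letters 4 times, beginning 166, 117, 68 and 19 bases before the start, and no other member window holds them at more than 3 places. NDUFB4 holds them at 159 and 63 bases, and once more across the start itself, where they are not in capitals. UQCRFS1 holds them once, 31 bases before the start, on the opposite strand. The stretches of NDUFB3, NDUFV3 and ATP5G1 hold none of the letters searched.

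AA132 at 30 µM was set against Tg directly, which uses no vehicle library. It shares its Tg libraries with the comparison above, and so adds a second reference and no new Tg measurement. Members were higher in AA132 30 µM in 21 cases (14.3% of all genes were called higher) and lower in 5 (15.5% of all genes), with a median log2 difference of 0.089. The largest differences were NDUFB3 at 0.63 ± 0.14 (adjusted p = 5.08e-04) and ATP5G1 at 0.585 ± 0.084 (adjusted p = 1.57e-06). COX7B, COX7C and COX7A2 followed at 0.57, 0.49 and 0.49. The libraries did not overlap in any of the 26, which were called on these same libraries. The share of all genes without overlap was not counted, so this adds no support. NDUFB3 measured 49.2, 44.2 and 45.4 CPM under AA132 30 µM, and ATP5G1 127, 122.8 and 142.5 CPM, and neither was called against vehicle. The 5 lower members were all in complex I: NDUFV3 at −0.535, NDUFAF2 at −0.42, NDUFB9 at −0.35 and the core subunits NDUFV1 and NDUFS1 at −0.28 and −0.26.

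**Figure D4:**
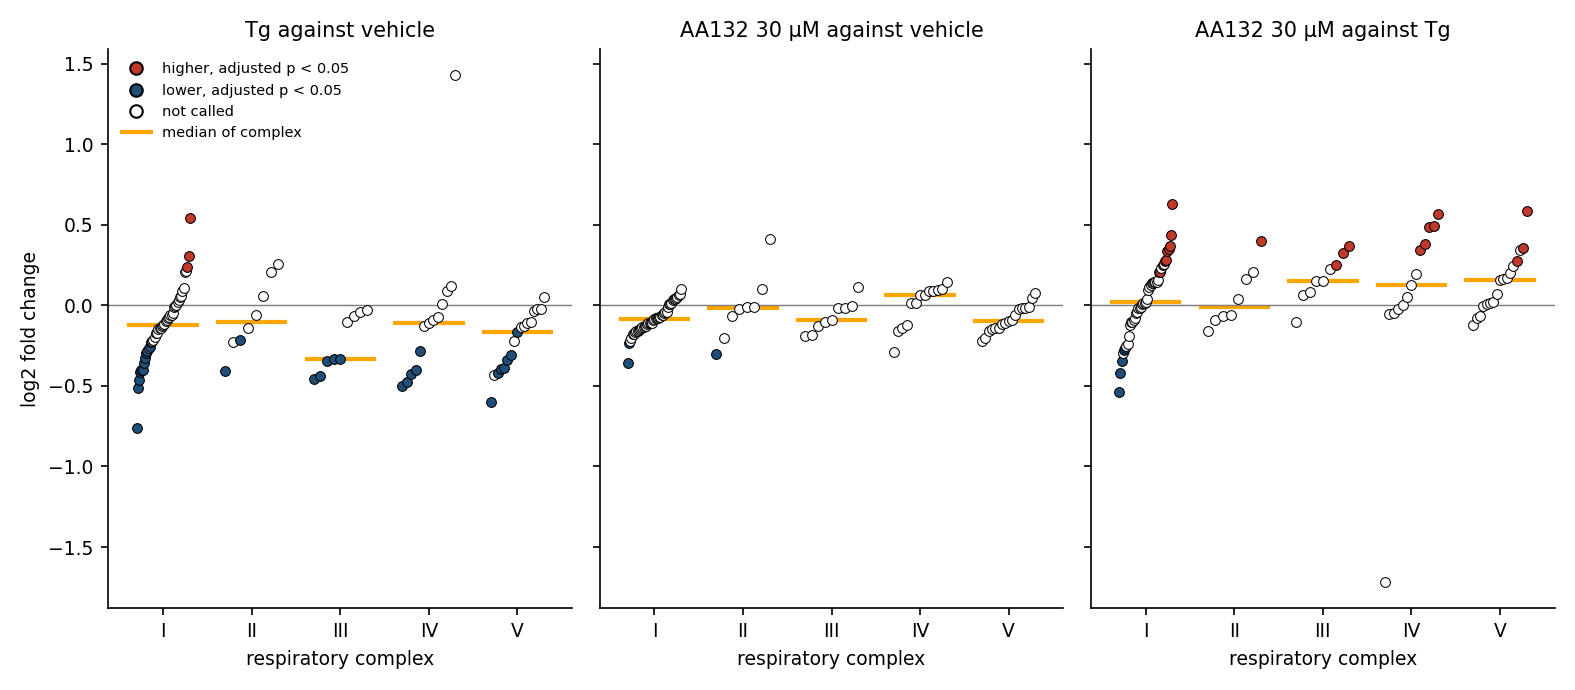
Log2 fold change of the tested respiratory chain genes by complex, for Tg against vehicle, AA132 30 µM against vehicle and AA132 30 µM against Tg. Filled circles have an adjusted p under 0.05, bars are the median of each complex, and the open circle at 1.43 in the left panel is NDUFA4L2, which lay under 1 CPM; under AA132 30 µM 3 members were called against vehicle and 31 fell under Tg.

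AA132 against vehicle gave between 0 and 3 calls among these genes at each dose. At 0.1, 0.3 and 1 µM 0 members and 0.0% of all genes were called. At an unadjusted p under 0.05 there were 3, 8 and 9 members, against 4.47%, 5.51% and 5.94% of all genes. At 3 and 6 µM 0 members were called, where 0.118% and 1.07% of all genes were, and 22 and 26 members had an unadjusted p under 0.05, as had 9.19% and 12.3% of all genes. Member medians at these 5 doses were −0.048, −0.10, −0.087, −0.12 and −0.14, and without vehicle library 1 they were 0.064, 0.006, 0.009, −0.015 and −0.035. At 10 µM 1 member was lower (1.09%, all genes 0.371%), at 15 µM 2 (2.17%, all genes 0.792%) and at 30 µM 3 (3.26%, all genes 3.19%), the last a share near that of genes at large. Against the 3 vehicle libraries 0 were higher at any dose (1.03%, 1.97% and 3.86% of all genes at these 3). The medians at the 3 highest doses were −0.02, −0.13 and −0.077, and 0.078, −0.032 and 0.047 without vehicle library 1.

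SDHA was the member called at all 3 of these doses. It measured 261, 296 and 323 CPM at 10 µM, 283, 294 and 299.5 CPM at 15 µM, and 273, 302 and 300.8 CPM at 30 µM, all below the 3 vehicle libraries. Its log2 fold changes were −0.296 ± 0.069 (adjusted p = 0.0185), −0.30 ± 0.069 (adjusted p = 0.0105) and −0.30 ± 0.069 (adjusted p = 0.00549). Without vehicle library 1 they were −0.21, −0.22 and −0.22, and of these only the value at 30 µM was called (adjusted p = 0.0323). The call was also lost without library 1 of the dose, with adjusted p of 0.0938, 0.0630 and 0.0540 from 10 to 30 µM, and at 10 µM without library 2 (adjusted p = 0.0513). Against the low-dose libraries all 3 were called, at −0.23 each, where 2.06%, 1.29% and 7.47% of all genes were lower.

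Each other call was made at 1 dose. At 15 µM UQCRFS1 measured 198, 226 and 223 CPM and changed by −0.297 ± 0.070 (adjusted p = 0.0136), a call that was lost without vehicle library 1 (adjusted p = 0.0675), without library 1 of that dose (adjusted p = 0.123) and against the low-dose libraries (adjusted p = 0.347). NDUFB10, a membrane arm subunit of complex I, measured 162.3, 112 and 118 CPM in vehicle and 98.8, 98.5 and 109 CPM at 30 µM. Its change of −0.36 ± 0.091 (adjusted p = 0.013) was −0.17 (adjusted p = 0.141) without vehicle library 1 and −0.26 (adjusted p = 0.0132) against the low-dose libraries, and the call was lost without library 1 or 2 of the 30 µM dose (adjusted p = 0.0666 and 0.0670). Without vehicle library 1, COX5B and NDUFA13 were called higher at 10 µM (1.88% of all genes), and SDHAF4 higher (5.55%) and NDUFS1 lower (5.59%) at 30 µM. Against the low-dose libraries COX5B (0.26, adjusted p = 0.034) and ATP5E (0.32, adjusted p = 0.0492) were called higher at 10 µM (3.24% of all genes), and UQCRQ (0.26, adjusted p = 0.0331) at 30 µM (8.41%). COX5B was thus called at 10 µM with both other references. Both fits use the same AA132 10 µM libraries, so this adds no new measurement of COX5B at that dose. None of these 6 was called with all vehicle libraries, and they are named after their values were seen.

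The dose trend over the 24 AA132 libraries also uses no vehicle library. Of 92 members, 7 fell with log10 dose (7.61%) and 0 rose, where 8.89% of all 17554 genes tested fell and 9.83% rose, so the share that fell was near that of genes at large. The median slope of the members was −0.004. SDHA was the steepest, at −0.126 ± 0.018 log2 units for each 10-fold in dose (adjusted p = 5.78e-06). It measured 357, 363 and 347 CPM at 0.1 µM, 344, 358 and 338 CPM at 0.3 µM, 324, 322 and 337 CPM at 1 µM, and 298, 299.8 and 340 CPM at 3 µM. At 6 µM it measured 313, 306 and 320 CPM, and at 10 µM and above every library but 1 lay at or below 302.4 CPM. The lowest dose and the highest did not overlap.

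NDUFB10 fell by 0.094 ± 0.021 per 10-fold (adjusted p = 0.00169), from 120, 136 and 115 CPM at 0.1 µM to the values given for 30 µM. ATP5D, the delta subunit of the central stalk, fell by 0.089 ± 0.025 (adjusted p = 0.00988), from 63, 65.7 and 60.6 CPM at 0.1 µM to 56.1, 54.8 and 57.6 CPM at 30 µM. ATP5J, a peripheral stalk subunit, fell by 0.076 ± 0.027 (adjusted p = 0.0444), with 122, 149 and 116 CPM at 0.1 µM and 105.5, 117 and 115 CPM at 30 µM, where the doses overlap. The other 3 that fell were ATP5J2, NDUFV1 and ATP5A1, at −0.07, −0.055 and −0.051. Thus 4 of the 7 belonged to complex V, and 0 belonged to complexes III or IV. All 7 core subunits of complex I had a negative slope, between −0.061 and −0.022, and 1 of them, NDUFV1, was called. SDHA, NDUFB10 and ATP5D were called when any 1 library and when the 30 µM dose was left out. NDUFV1 and ATP5J lost the call without the 30 µM dose (adjusted p = 0.0714 and 0.211). ATP5J, ATP5J2 and ATP5A1 also lost the call in 11 to 13 of the 24 fits without 1 library. Among those 24 fits each was at its weakest without library 2 at 0.1 µM (adjusted p = 0.186, 0.1999 and 0.114).

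**Figure D5:**
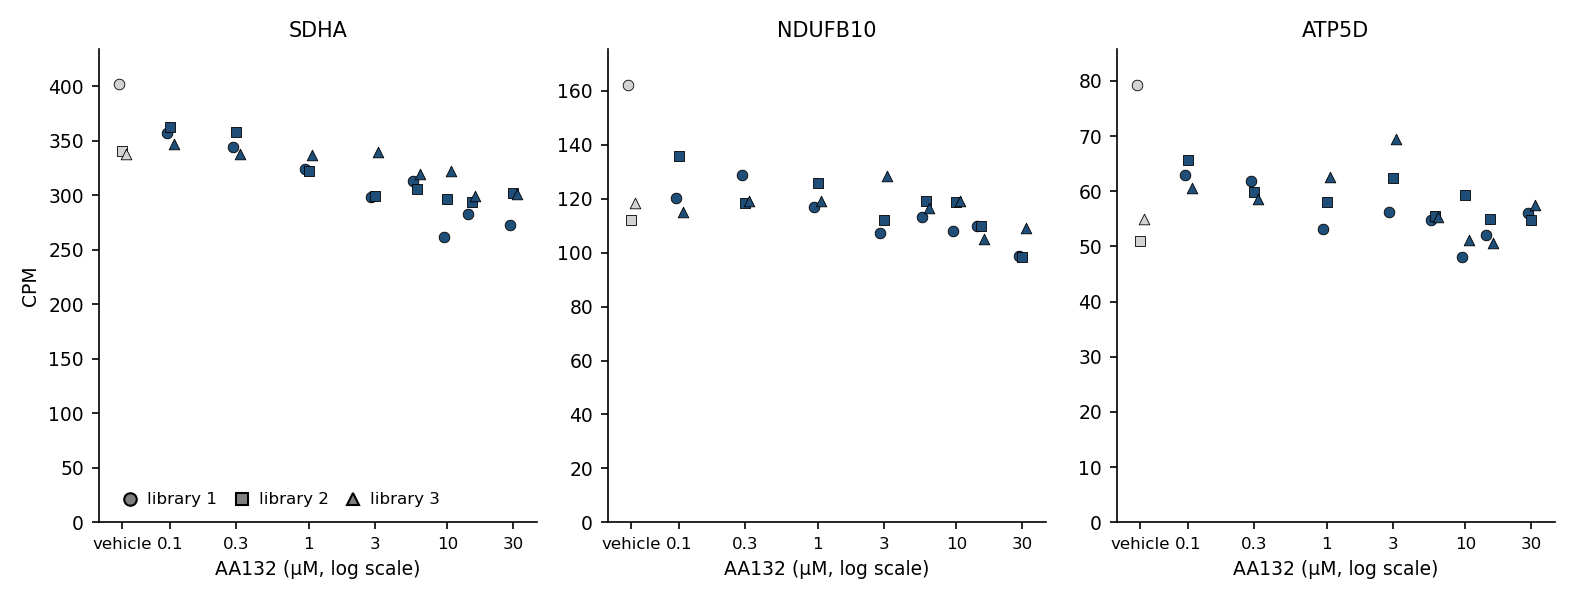
CPM of SDHA, NDUFB10 and ATP5D (vertical axes, starting at 0) against AA132 dose on a log axis, 1 symbol a library, with the 3 vehicle libraries in grey at the left, placed apart from the dose scale. SDHA lies at 347 to 363 CPM at 0.1 µM and at 273 to 302 CPM at 30 µM, and vehicle library 1 lies above all AA132 libraries in each panel.

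AA147 at 10 µM changed none of the 92 members by edgeR's test (0 called, where 0.0225% of all genes were), with 6 at an unadjusted p under 0.05 (6.81% of all genes) and 0 called by DESeq2. The median was −0.063, and 0.024 without vehicle library 1. AA132 and AA147 were compared at the matched dose of 10 µM, and 0 members were called (0.0674% of all genes), with 13 at an unadjusted p under 0.05 (8.01% of all genes), 0 called by DESeq2 and a median difference of 0.032. The largest difference by p was ATP5E, the epsilon subunit of the central stalk, at 0.46 ± 0.13 (adjusted p = 0.214). Library 1 of each group lay high in complex IV, with a median deviation of 0.263 for AA147 and 0.272 for AA132. Values that miss the threshold do not show that the compounds act alike on these genes. Differences of 1.3-fold were recovered in only 27.5% of cases when simulated for Tg against vehicle. AA132 against AA147 was not simulated, so its own rate is not known.

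Lists of neighbouring genes, chosen with earlier results of these data known, give the setting of these changes under Tg. Of all genes tested, 16.2% were called higher under Tg and 15.0% lower, and a list with shares near these does not stand apart. Among 22 complex IV assembly genes tested, 4 fell and 5 rose, with COA3 at −0.58, COX16 at −0.57 and COA4 at −0.45, and COX10, SURF1 and LRPPRC at 0.34, 0.31 and 0.23. Of the 14 genes for the mobile carriers and coenzyme Q synthesis, 7 rose and 0 fell, among them cytochrome c (CYCS, 0.35), COQ10B (0.35) and COQ4 (0.33), with a list median of 0.22. ATP synthase genes outside the set had 2 of 5 lower, C14orf2 at −0.41 and USMG5 at −0.39, both small membrane subunits, and 1 higher, the assembly factor ATPAF1 at 0.19. Of 10 complex I assembly factors outside the set, 1 rose (FOXRED1, 0.44), and of 7 other complex III genes 1 rose (TTC19, 0.545). The calls of LRPPRC, COQ10B, C14orf2 and USMG5 did not hold without vehicle library 1 (adjusted p of 0.0507, 0.0567, 0.156 and 0.193), and that of USMG5 also against the low-dose libraries (adjusted p = 0.0581). Of the carrier and coenzyme Q list, 6 genes rose with all 3 references.

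Further from the chain the lists were mixed, and their counts are to be read against the same shares of all genes (16.2% higher, 15.0% lower). In the tricarboxylic acid cycle list 2 of 18 genes rose and 1 fell, with pyruvate carboxylase (PC) at 0.74 and OGDH at −0.58. Among 15 regulators of respiratory gene expression, 3 fell and 2 rose: the mitochondrial RNA polymerase POLRMT at −0.49, EPAS1 at −0.43 and the coactivator PPRC1 at −0.265, against GABPB1 at 0.296 and TFB1M at 0.23. NRF1 itself was not among those called. Of 12 import and supercomplex genes, TIMM17A (0.57) and TIMM44 (0.48) rose and TOMM22 (−0.34) and HIGD1A (−0.31) fell. GABPB1 and HIGD1A were not called without vehicle library 1 (adjusted p = 0.0532 and 0.0537). Against vehicle 0 of the 13 mitochondrially encoded mRNAs were called, with a median of 0.199, and 0 without vehicle library 1, with a median of 0.25. Against the low-dose libraries 9 of the 13 were called higher (20.0% of all genes), with a median of 0.37, among them ATP8 at 0.71 and CYTB at 0.37. ATP8 varied widely under Tg, at 619.5 ± 314.6 CPM (SD, n = 3). Under AA132 30 µM 3.86% of all genes were called higher and 3.19% lower. At that dose these lists gave 3 calls in all: IDH3G at −0.295, TOMM40 at −0.28 and the mitochondrially encoded ND5 at 0.47. None of the 3 held when vehicle library 1 was dropped (adjusted p = 0.194, 0.272 and 0.0764), and all were called against the low-dose libraries.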

How the data were processed

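The aligner, the counting tool and the use of strand are not given in the sources used here; the submitters' processing notes name the build GRCh38.p7. The deposited table gives the authors' expected counts (estimated reads per gene), without scaling, in 33 columns, of which 0 were left out. A value of 0.009 stands in place of 0 in 43.51% of cells, and 3.22% of cells are fractional. Entries of 1 name were summed, which left 38021 genes, the floor was set to 0 and expected counts were rounded. Columns of 1 condition differed by more than counting error, with chi-square per degree of freedom of 4.48 to 59.35 over 33 pairs. The highest values were for pairs with library 1 of vehicle (46.18 and 59.35), of AA132 10 µM (33.66 and 36.14) and of AA147 (22.15 and 23.01).

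Calls come from the quasi-likelihood test of edgeR 4.0.16 (R 4.3.3), with TMM scaling factors (a trimmed mean of log ratios), the edgeR filter on low counts (17793 genes), 1 fit over 11 conditions without a block, and Benjamini-Hochberg adjusted p under 0.05. The AA132 slope used 24 libraries (17554 genes). CPM use TMM factors. Alternatives were other normalization factors, no filter, a replicate block, DESeq2 1.42.0, 2-condition fits, each library left out and, added after the data were seen, a low-dose reference. On simulated data for Tg against vehicle, with 200 of 17793 genes changed, 1.3-, 1.5- and 2-fold changes were recovered in 27.5%, 96% and 100% of cases. Of the 57, 203 and 219 genes called there, 3.51%, 5.42% and 8.68% were false calls. The simulation gave all genes the common dispersion and held no library that stood apart.

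All 98 members were placed in GENCODE v44, in part by an older symbol, and positions played no part in counting. The members and lists were chosen with earlier results of these data known. Named with values were up to 4 called members in each direction under Tg, AA147, AA132 10, 15 and 30 µM and the slope, with at least 1 CPM in the higher group, the complex IV paralogs with their counterparts, and the highest and lowest member of each complex. From each pathway list up to 3 called genes in each direction were named under Tg and AA132 30 µM. Other members named were chosen after their values were seen. Values of 2 genes that this rule names are not reported here. Intervals of the SE cover the spread between libraries only.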

Additional observations from a re-analysis of the deposited data

How the results depend on the processing

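Leaving out 1 library at a time changed the count of respiratory chain genes called under Tg from 34 to between 24 and 40, and the median log2 fold change from −0.13 to between −0.197 and −0.038. Over the same fits the count stayed at 0 for AA147 and for AA132 at 0.1, 0.3, 1 and 3 µM, and ran from 0 to 6 at 6 µM, 0 to 2 at 10 µM, 0 to 12 at 15 µM and 0 to 4 at 30 µM. The 6 at 6 µM and the 12 at 15 µM came without vehicle library 2, and without vehicle library 3 there were 1 and 5. The count fell to 0 at 10 µM without library 1 or 2 of that dose, at 15 µM without library 1 of that dose or of vehicle, and at 30 µM without library 1 of that dose (1 without library 2). It stayed at 0 for AA132 against AA147, ran from 19 to 26 for AA132 30 µM against Tg and from 4 to 9 for the slope. The lowest slope counts (4) came when library 1 of the 0.3, 6, 15 or 30 µM dose or library 2 of the 1 µM dose was left out. Medians without 1 library ran from −0.138 to 0.024 for AA147, and for AA132 from −0.114 to 0.064 at 0.1 µM, −0.169 to 0.006 at 0.3 µM, −0.154 to 0.009 at 1 µM, −0.189 to −0.015 at 3 µM and −0.204 to −0.035 at 6 µM. They ran from −0.077 to 0.078 at 10 µM, −0.201 to −0.032 at 15 µM, −0.133 to 0.047 at 30 µM, 0.006 to 0.084 against AA147 and 0.065 to 0.108 against Tg. The upper ends above 0 against vehicle came without vehicle library 1. Fits of only the conditions compared called 18 members under Tg, 0 at 10, 15 and 30 µM against vehicle, and 41 (32 higher, 9 lower) for 30 µM against Tg. Upper quartile factors called 2 at 6 µM and 4 at 15 µM and gave medians of −0.19 under Tg and −0.16 at 15 µM. Library totals alone called 2 at 6 µM, 2 at 10 µM and 5 at 15 µM, and DESeq2 called 2 and 5 at 6 and 15 µM. Without the filter 2 were called at 3 µM, 7 at 6 µM, 9 at 15 µM, 3 against AA147 and 4 for the slope. The cause of these differences was not tested. Against the low-dose AA132 libraries 3 were called at 10 µM and 1 at 15 µM, and medians were −0.065 under Tg and −0.029, −0.058, 0.077, −0.063 and 0.016 at 3, 6, 10, 15 and 30 µM. With the library number as a replicate block 33 were called under Tg, without NDUFB9 (adjusted p = 0.0515), and for 30 µM against Tg NDUFAB1 was lost (adjusted p = 0.0553) and NDUFAF5 gained at a count of 26. The same genes were called as without it in the other comparisons. Deviations of same-numbered libraries correlated at a median of 0.001 (−0.147 to 0.183), and those of differently numbered ones at −0.002. Closest to their own number were 13 of 33 libraries. A median over all pairs cannot show whether libraries of some conditions were paired. Of 73 calls of single members, 37 held in every fit, 955 of 1115 refitted values kept the call and 0 reversed. In the simulated comparison of Tg with vehicle, 1.3-fold changes were often missed.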
